A study of Mus musculus with 26 samples.

Results

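The genes described here are 34 members of the ATF4 and amino acid response, out of 55391 genes in the counts table, and were listed by symbol and role. They comprise 6 transcription factors (Atf4, Atf5, Ddit3, Cebpb, Cebpg and Nupr1), 5 feedback and stress effectors (Trib3, Chac1, Sesn2, Vldlr and Stc2), 8 enzymes of serine, one-carbon, proline and asparagine synthesis (Asns, Psat1, Phgdh, Psph, Shmt2, Mthfd2, Aldh18a1 and Pycr1), 8 amino acid transporters (Slc7a11, Slc7a5, Slc7a1, Slc3a2, Slc1a4, Slc1a5, Slc38a2 and Slc6a9) and 7 cytosolic aminoacyl-tRNA synthetases (Aars, Gars, Wars, Mars, Nars, Sars and Eprs). All 34 were found in the table and passed the filter on low counts.

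ATF4 is a basic leucine zipper transcription factor whose mRNA is translated more when the initiation factor eIF2α is phosphorylated, by GCN2 in cells short of amino acids, by PERK under stress of the endoplasmic reticulum, and by PKR or HRI under other stresses. ATF4 pairs with other leucine zipper proteins, among them the C/EBP family and CHOP (encoded by Ddit3), and binds C/EBP-ATF response elements near genes that import amino acids, make serine, glycine, asparagine and proline, and charge tRNAs. Growth factor signaling through mTORC1 is also known to raise ATF4 protein, and Trib3, Chac1 and Ddit3 are commonly used readouts of the response.

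EA1, EA2 and EA3 are mouse lung cancer cell lines driven by an EML4-ALK fusion, which had been made in C57BL/6 mice with an adenovirus that carries Cas9 and guide RNAs to Eml4 and Alk. EA2 and EA3 came from mice null for Trp53 and EA1 from a mouse with wild type Trp53, and EA2 was made in another laboratory, so that line, genotype and origin cannot be told apart. Each line was grown in RPMI with serum and given 0.1% DMSO or 100 nM alectinib, an inhibitor of the ALK kinase, and poly(A) RNA was sequenced after 1, 2, 3 and 5 days, once for each line and treatment, which gives 24 libraries. The 4 days served as the 4 replicates of a line and treatment (n = 4 wherever a line is named), so that p-values rest on the spread between days of 1 culture series and not on repeated cultures. A further DMSO library and a further alectinib library were labelled EA3 day 7, and over all tested genes their log2 CPM correlated more with the EA2 libraries of the same treatment (r = 0.943 to 0.977 and 0.960 to 0.988) than with those of EA3 (0.858 to 0.890 and 0.852 to 0.871). They were left out of the comparisons, and with both of them in the fit as EA3 the number of members lower in EA3 was 31 in place of 25. Over all tested genes, 2357 of 14335 were lower in EA3 in that fit, in place of 2157 of 14264.

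Library totals ran from 5780062 to 11732401 counts, with a median of 9252878, and levels are given as CPM, each gene's share of the TMM-scaled library total. A floor of 3 counts, which covers counting error only, stood at 0.251 to 0.53 CPM over the 24 libraries on this scale, and the lowest value of any member in any library was 1.09 CPM. The epithelial genes Krt8, Krt18 and Cdh1 were present in all 3 lines, whereas Epcam was at most 7.77 CPM in EA1 and 0.627 CPM in EA2. The alveolar markers Nkx2-1, Sftpb and Sftpc had at most 7, 6 and 1 counts in any library. The summed level of 7 fibroblast transcripts (Col1a1, Col1a2, Col3a1, Dcn, Lum, Pdgfra and Pdgfrb) moved with treatment. In EA1 it was 9.08 to 44.1 CPM with DMSO and 126 to 478 CPM with alectinib, in EA2 58.4 to 71.5 CPM and 122 to 239.8 CPM, and in EA3 10.2 to 20.2 CPM and 84.7 to 274 CPM. Lum had at most 3 counts in every EA2 and EA3 library, and 5, 3 and 5 of the 6 tested genes of this list were higher with alectinib in EA1, EA2 and EA3. The summed level of 5 epithelial genes (Epcam, Cdh1, Krt8, Krt18 and Krt19) did not overlap in EA2, with 1811 to 2695 CPM with DMSO and 567 to 1169 CPM with alectinib, and overlapped in EA1 (4633 to 9252 and 3245 to 5367 CPM) and EA3 (4633 to 6679.9 and 2949.8 to 6655 CPM), with 1, 2 and 1 of the 5 lower and 1 of the 5 higher in each line. The summed level of 3 endothelial genes was 1.97 to 5.71 CPM with DMSO and 0.177 to 0.902 CPM with alectinib in EA2, with 1 gene lower, and 1.79 to 9.06 CPM in the other lines. That of 5 macrophage and leukocyte genes was 1.57 to 93.4 CPM over the 24 libraries, with no tested gene past the threshold. The part of these shifts in the values of the 34 genes was not tested, and in bulk RNA fewer cells of a type and less RNA per cell cannot be told apart.

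The core of the C/EBP-ATF response element, searched as TGATGNAA on both strands, was found in the promoters of 10 of the 30 members with a RefSeq promoter sequence (33.3%), against 1219 of 27025 genes (4.51%) and 3.97% of all promoter windows of the same 300 bases, which run from 250 bases before to 50 bases after a transcript start (RefSeq, GRCm38.p6). Slc7a5, Slc1a5, Wars and Nars had no promoter entry. A match is a description of letters and not a binding site, and no match says only that these letters were not in the window. The matches are shown because genes of all 5 roles hold them. Each is written 5′ to 3′ on the strand of its gene, with the element in capitals.
Asns: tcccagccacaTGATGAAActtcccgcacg
Trib3: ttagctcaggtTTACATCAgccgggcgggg
Chac1: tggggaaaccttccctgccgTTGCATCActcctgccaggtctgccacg
Pycr1: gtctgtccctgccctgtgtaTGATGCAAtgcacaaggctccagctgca
Slc7a11: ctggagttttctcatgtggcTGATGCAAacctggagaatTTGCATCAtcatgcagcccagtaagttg
Slc1a4: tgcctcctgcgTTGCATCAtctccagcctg
Aars: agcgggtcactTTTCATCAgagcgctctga
Gars: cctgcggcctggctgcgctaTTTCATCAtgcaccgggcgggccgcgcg
Nupr1: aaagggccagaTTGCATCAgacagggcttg
Vldlr: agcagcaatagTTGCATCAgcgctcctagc

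The Asns window lies at chr6:7693214-7693243 on the minus strand, with the element beginning 23 bases before the start, and overlaps an annotated exon of Asns. The Trib3 window (chr2:152344028-152344057, minus strand) begins its element 14 bases after the start, and overlaps an annotated exon of Trib3. Those of Chac1 (chr2:119351029-119351076, plus strand), Pycr1 (chr11:120643824-120643871, minus strand), Gars (chr6:55037951-55037998, plus strand) and Slc7a11 (chr3:50443633-50443699, minus strand) lie between annotated genes, and that of Slc7a11 holds 2 matches in opposite orientation. The windows of Slc1a4 (chr11:20332699-20332728, minus strand), Nupr1 (chr7:126625562-126625591, minus strand) and Vldlr (chr19:27216809-27216838, plus strand) overlap an exon of their own gene, as does that of Aars (chr8:111033840-111033869, plus strand). Of the 10 genes with the element, 8 were lower with alectinib in EA1, 1 in EA2 and 5 in EA3 (edgeR adjusted p below 0.05), where 14.6%, 11.3% and 15.1% of all tested genes were lower, and the 2 not lower in EA1 were Nupr1 and Vldlr. Their median log2 fold changes were -1.14, -0.37 and -0.86 in EA1, EA2 and EA3. In each line the share lower was smaller, and the median less negative, than for the whole set of members given below.

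Alectinib lowered most of the 34 genes in EA1 and EA3 and fewer in EA2, and raised none past the threshold in any line. In EA1, 31 of 34 were lower (edgeR quasi-likelihood test, Benjamini-Hochberg adjusted p below 0.05 over 14264 genes), where 14.6% of all tested genes were lower. In EA3, 25 of 34 were lower against 15.1% of all genes, and in EA2 10 of 34 against 11.3%. The median log2 fold change of the 34 was -1.45, -0.42 and -1.17 in EA1, EA2 and EA3, and that of all tested genes was 0.06, 0 and 0.07. Without a test, the 4 alectinib libraries were all below the 4 DMSO libraries for 22 members in EA1 (13% of all genes), 6 in EA2 (12.5%) and 18 in EA3 (10.7%). The pair titled EA3 day 7, which resembled EA2, is not in these counts. In that pair 34 of 34 members were lower with alectinib (47.9% of all tested genes), with a median log2 ratio of -1.57 and a single library per treatment.

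Sesn2, Stc2, Psat1, Psph, Shmt2, Mthfd2, Aldh18a1, Slc7a11, Slc1a5 and Mars were lower in all 3 lines, which is 10 of 34 members against 4.23% of all tested genes. A further 14 were lower in 2 lines (7.73% of all genes), Aars, Atf5, Cebpb, Cebpg, Chac1, Eprs, Pycr1 and Wars in 1 line (12.9%), and Nupr1 and Vldlr in none, as were 75.2% of all tested genes. The plot of log2 fold changes shows the 5 groups of genes in each line. The count in EA2 was 4 in the fit without the line and day as a replicate block (8.9% of all genes were lower in that fit), where Sesn2, Stc2, Psph, Aldh18a1, Slc7a11 and Mars did not pass. That fit also lost the calls of Sesn2 and Stc2 in EA1 (edgeR adjusted p = 0.110 and 0.0674) and of Gars, Nars, Sars, Slc7a1 and Slc38a2 in EA3 (edgeR adjusted p = 0.0550 to 0.121), and those of Nars and Slc7a1 in EA3 were lost under library size alone as well (edgeR adjusted p = 0.0702 and 0.0665). With each line fitted alone, Ddit3 and Slc38a2 in EA3 lost theirs (edgeR adjusted p = 0.0639 and 0.0561), as did Mars in EA2 with no filter (edgeR adjusted p = 0.156) and Aldh18a1 in EA2 with all 26 libraries (edgeR adjusted p = 0.0699). When 1 day was left out, 27 to 31 members were lower in EA1, 7 to 9 in EA2 and 18 to 28 in EA3. Of the 14270 to 14490 genes tested in these fits, 1360 to 1907, 985 to 1306 and 1389 to 1836 were lower in EA1, EA2 and EA3. In the other direction, Chac1 in EA3 was past the threshold in 5 of 12 alternatives, Wars in EA3 in 4 and Trib3 in EA2 in 3.

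**Figure D1:**
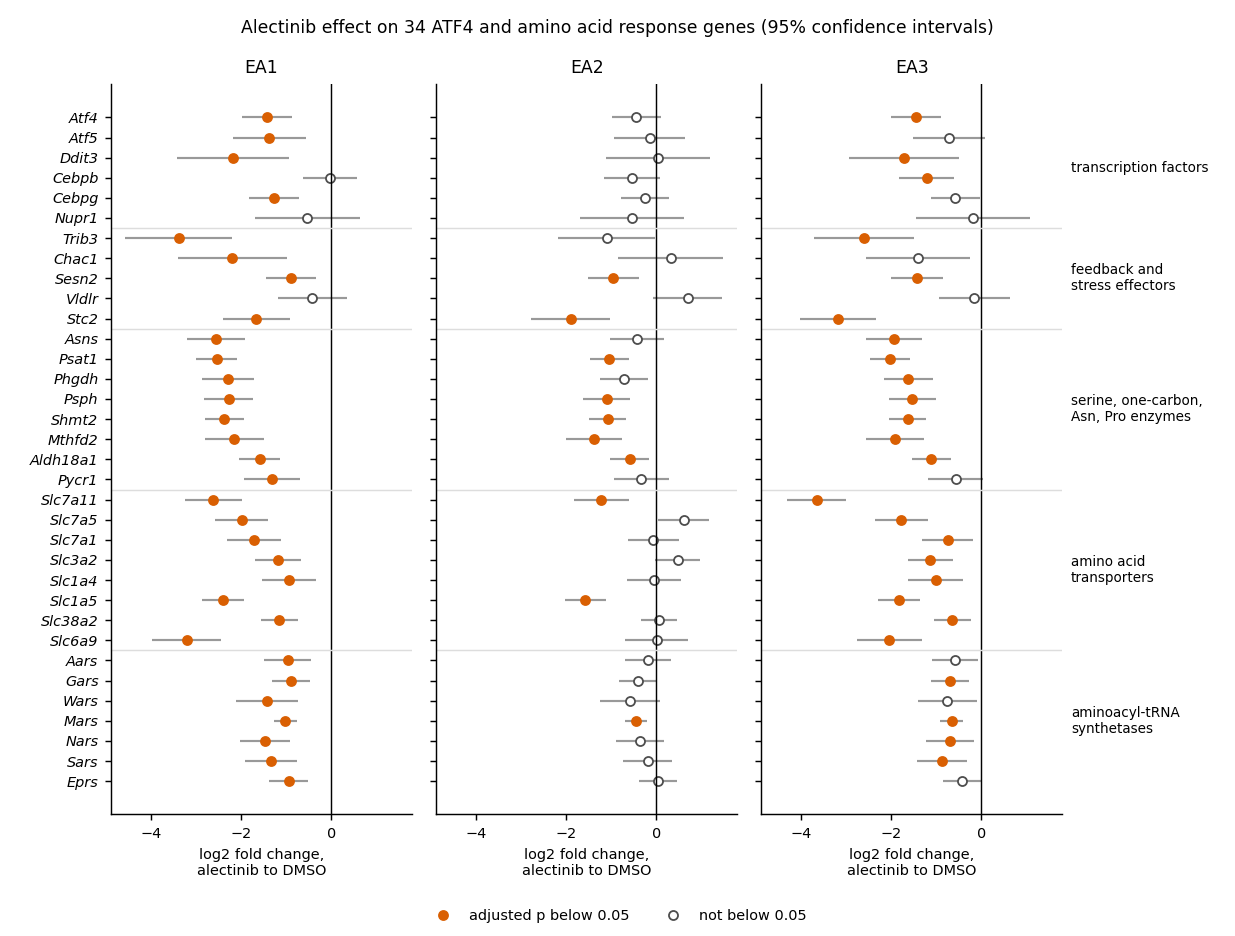
Log2 fold change of alectinib to DMSO for each of the 34 genes (rows, grouped by role) in EA1, EA2 and EA3, with 95% confidence intervals as lines; filled points have an edgeR adjusted p below 0.05. All 34 points lie below 0 in EA1 and in EA3, and 26 of 34 in EA2, where 10 points are filled.

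Among the transcription factors, Atf4, Atf5, Ddit3 and Cebpg were lower in EA1 and Atf4, Ddit3 and Cebpb in EA3, and none of the 6 passed the threshold in EA2. In EA1, Atf4 was at 274, 818, 978 and 589 CPM on days 1, 2, 3 and 5 with DMSO and at 185, 225, 304 and 195 CPM with alectinib. In EA2, Atf4 was at 219, 278, 642 and 418 CPM on days 1, 2, 3 and 5 with DMSO and at 139, 314, 371 and 296 CPM with alectinib. In EA3, Atf4 was at 358, 921, 809 and 723 CPM on days 1, 2, 3 and 5 with DMSO and at 235, 236, 333 and 186 CPM with alectinib. With DMSO, Atf4 was lowest on day 1 in every line, and with alectinib it stayed at or below 371 CPM throughout. The alectinib libraries lay below every DMSO library in EA3, whereas in EA1 the DMSO library of day 1 lay inside the alectinib range, and in EA2 the order was turned on day 2. Atf4 fell 2.70-fold in EA1 (log2 fold change -1.43, SE 0.256, edgeR adjusted p = 0.00104) and 2.75-fold in EA3 (log2 fold change -1.46, SE 0.257, edgeR adjusted p = 9.43e-04). The difference of Atf4 in EA2 (log2 fold change -0.45, SE 0.25, edgeR adjusted p = 0.222) was not past the threshold.

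Ddit3 encodes CHOP, a C/EBP relative that is induced by ATF4 and can favor cell death. In EA1, Ddit3 was at 7.84, 42.1, 166 and 100.3 CPM on days 1, 2, 3 and 5 with DMSO and at 7.53, 10.3, 16.6 and 13.5 CPM with alectinib. In EA2, Ddit3 was at 9.31, 12.9, 80.1 and 15.2 CPM on days 1, 2, 3 and 5 with DMSO and at 12.4, 17.9, 37.1 and 20.8 CPM with alectinib. In EA3, Ddit3 was at 10.9, 36.4, 67.6 and 212 CPM on days 1, 2, 3 and 5 with DMSO and at 11.5, 15.5, 14.5 and 21.0 CPM with alectinib. On day 1 the treatments differed little in any line, and the later DMSO libraries of EA1 and EA3 carried the difference. The groups overlapped in all 3 lines, and in EA2 the DMSO level was above the alectinib level on day 3 only. Ddit3 fell 4.53-fold in EA1 (log2 fold change -2.18, SE 0.577, edgeR adjusted p = 0.0116) and 3.29-fold in EA3 (log2 fold change -1.72, SE 0.567, edgeR adjusted p = 0.0340). The difference of Ddit3 in EA2 (log2 fold change 0.04, SE 0.536, edgeR adjusted p = 0.978) was not past the threshold. The table has 1 row for Ddit3, although 2 annotated genes carry that name, and 4.73% of its exon bases overlap Mars or Gm4189 on the other strand.

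Atf5, a relative of ATF4 that is also controlled by translation, had its highest levels in EA1 DMSO libraries. In EA1, Atf5 was at 73.8, 323, 604 and 221 CPM on days 1, 2, 3 and 5 with DMSO and at 78.3, 114, 95.6 and 84.1 CPM with alectinib. In EA2, Atf5 was at 31.1, 26.9, 59.3 and 44.8 CPM on days 1, 2, 3 and 5 with DMSO and at 19.8, 33.9, 37.6 and 58.2 CPM with alectinib. In EA3, Atf5 was at 27.7, 75.3, 96.2 and 64.8 CPM on days 1, 2, 3 and 5 with DMSO and at 36.5, 40.1, 41.4 and 30 CPM with alectinib. The EA1 alectinib libraries stayed near the EA1 DMSO level of day 1, and the groups overlapped in every line. Atf5 fell 2.60-fold in EA1 (log2 fold change -1.38, SE 0.376, edgeR adjusted p = 0.0129). The differences of Atf5 in EA2 (log2 fold change -0.15, SE 0.366, edgeR adjusted p = 0.803) and EA3 (log2 fold change -0.72, SE 0.367, edgeR adjusted p = 0.151) were not past the threshold.

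Cebpg, a C/EBP protein that pairs with ATF4, was at 55.1 to 188 CPM with DMSO and 36.1 to 42.9 CPM with alectinib in EA1, without overlap. Cebpg fell 2.40-fold in EA1 (log2 fold change -1.27, SE 0.256, edgeR adjusted p = 0.00233). The differences of Cebpg in EA2 (log2 fold change -0.25, SE 0.249, edgeR adjusted p = 0.5) and EA3 (log2 fold change -0.58, SE 0.251, edgeR adjusted p = 0.0959) were not past the threshold. Cebpb, another C/EBP protein, was at 77.1 to 425 CPM with DMSO and 48.9 to 130.5 CPM with alectinib in EA3, lower on all 4 days but with overlapping ranges. Cebpb fell 2.32-fold in EA3 (log2 fold change -1.21, SE 0.283, edgeR adjusted p = 0.00561). The differences of Cebpb in EA1 (log2 fold change -0.03, SE 0.28, edgeR adjusted p = 0.945) and EA2 (log2 fold change -0.53, SE 0.289, edgeR adjusted p = 0.206) were not past the threshold. Nupr1, a small stress-induced chromatin protein, was at 27.8 to 472 CPM with DMSO and 106 to 199 CPM with alectinib in EA3. The differences of Nupr1 in EA1 (log2 fold change -0.53, SE 0.541, edgeR adjusted p = 0.467), EA2 (log2 fold change -0.55, SE 0.532, edgeR adjusted p = 0.493) and EA3 (log2 fold change -0.19, SE 0.588, edgeR adjusted p = 0.835) were not past the threshold. Calls that were lost when a single day was left out were those of Atf5 in EA1 without day 2, 3 or 5 (edgeR adjusted p = 0.0532 to 0.0835), Ddit3 in EA1 without day 3 (edgeR adjusted p = 0.0835) and Ddit3 in EA3 without day 2, 3 or 5 (edgeR adjusted p = 0.0847 to 0.196). For Cebpb, 20.7% of exon bases overlap another gene on the other strand.

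The feedback and stress effectors included 2 genes that were lower in all 3 lines, Sesn2 and Stc2. Trib3 is a pseudokinase that binds ATF4 and CHOP and limits their activity. In EA1, Trib3 was at 12.8, 160.2, 317 and 132 CPM on days 1, 2, 3 and 5 with DMSO and at 6.46, 9.19, 16.3 and 10.4 CPM with alectinib. In EA2, Trib3 was at 14.4, 18.4, 186 and 46.1 CPM on days 1, 2, 3 and 5 with DMSO and at 5.04, 18.6, 50.3 and 24.5 CPM with alectinib. In EA3, Trib3 was at 36.0, 162, 231 and 199 CPM on days 1, 2, 3 and 5 with DMSO and at 16.6, 20.2, 35.2 and 17.5 CPM with alectinib. The DMSO level was above every alectinib level of its line from day 2 in EA1, on day 3 in EA2 and on all 4 days in EA3. The groups thus overlapped in EA1 through day 1 of DMSO and in EA2, and did not in EA3. Trib3 fell 10.4-fold in EA1 (log2 fold change -3.38, SE 0.551, edgeR adjusted p = 6.45e-04) and 6.09-fold in EA3 (log2 fold change -2.61, SE 0.510, edgeR adjusted p = 0.00212). The difference of Trib3 in EA2 (log2 fold change -1.10, SE 0.498, edgeR adjusted p = 0.131) was not past the threshold.

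Chac1 degrades glutathione and is switched on by ATF4 and CHOP. In EA1, Chac1 was at 7.22, 90.2, 58.7 and 33.1 CPM on days 1, 2, 3 and 5 with DMSO and at 4.44, 5.14, 17.9 and 6.95 CPM with alectinib. In EA2, Chac1 was at 4.66, 5.65, 88.0 and 37.6 CPM on days 1, 2, 3 and 5 with DMSO and at 9.38, 21.9, 69.1 and 19.6 CPM with alectinib. In EA3, Chac1 was at 10.2, 65.3, 75.7 and 32.0 CPM on days 1, 2, 3 and 5 with DMSO and at 9.42, 11.6, 31.1 and 10.3 CPM with alectinib. In EA1 and EA3 the DMSO library of day 1 was as low as the alectinib libraries, and in EA2 the alectinib level was the higher on days 1 and 2. Chac1 fell 4.57-fold in EA1 (log2 fold change -2.19, SE 0.562, edgeR adjusted p = 0.00965). The differences of Chac1 in EA2 (log2 fold change 0.32, SE 0.541, edgeR adjusted p = 0.712) and EA3 (log2 fold change -1.40, SE 0.531, edgeR adjusted p = 0.0595) were not past the threshold.

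Sesn2 encodes Sestrin 2, a leucine-binding inhibitor of mTORC1. In EA1, Sesn2 was at 29.4, 86.1, 127 and 64.9 CPM on days 1, 2, 3 and 5 with DMSO and at 28.1, 34.9, 48.9 and 37.1 CPM with alectinib. In EA2, Sesn2 was at 21.7, 17.8, 83.8 and 41.7 CPM on days 1, 2, 3 and 5 with DMSO and at 9.88, 14.7, 38.0 and 18.2 CPM with alectinib. In EA3, Sesn2 was at 18, 48.2, 79.7 and 58.3 CPM on days 1, 2, 3 and 5 with DMSO and at 13.6, 14.3, 24.1 and 17.2 CPM with alectinib. Alectinib libraries were the lower on every day in every line, with ranges that overlapped. Sesn2 fell 1.86-fold in EA1 (log2 fold change -0.90, SE 0.256, edgeR adjusted p = 0.0163), 1.94-fold in EA2 (log2 fold change -0.95, SE 0.261, edgeR adjusted p = 0.0166) and 2.69-fold in EA3 (log2 fold change -1.43, SE 0.263, edgeR adjusted p = 0.00130).

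Stc2 encodes a secreted glycoprotein induced by stress of the endoplasmic reticulum. In EA1, Stc2 was at 116, 196, 192 and 100.3 CPM on days 1, 2, 3 and 5 with DMSO and at 38.0, 35.5, 58.0 and 55.7 CPM with alectinib. In EA2, Stc2 was at 7.43, 12, 21.7 and 10.1 CPM on days 1, 2, 3 and 5 with DMSO and at 1.09, 1.94, 10.0 and 3.15 CPM with alectinib. In EA3, Stc2 was at 12.4, 49.7, 185 and 96.9 CPM on days 1, 2, 3 and 5 with DMSO and at 1.76, 3.49, 10.3 and 26.3 CPM with alectinib. EA2 cultures had the lowest DMSO levels, and EA1 was the only line without overlap. Stc2 fell 3.16-fold in EA1 (log2 fold change -1.66, SE 0.347, edgeR adjusted p = 0.00288), 3.73-fold in EA2 (log2 fold change -1.90, SE 0.404, edgeR adjusted p = 0.00391) and 9.01-fold in EA3 (log2 fold change -3.17, SE 0.393, edgeR adjusted p = 9.15e-05). Vldlr, a lipoprotein receptor known as an ATF4 target, was at 41.9 to 165 CPM with DMSO and 91.9 to 265 CPM with alectinib in EA2. The differences of Vldlr in EA1 (log2 fold change -0.42, SE 0.356, edgeR adjusted p = 0.373), EA2 (log2 fold change 0.70, SE 0.356, edgeR adjusted p = 0.179) and EA3 (log2 fold change -0.16, SE 0.368, edgeR adjusted p = 0.773) were not past the threshold. Calls that were lost when a single day was left out were those of Chac1 in EA1 without day 3 (edgeR adjusted p = 0.0513), Sesn2 in EA1 without day 2 or 3 (edgeR adjusted p = 0.0517 to 0.107) and Sesn2 in EA2 without day 3 or 5 (edgeR adjusted p = 0.0897 to 0.0938).

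**Figure D2:**
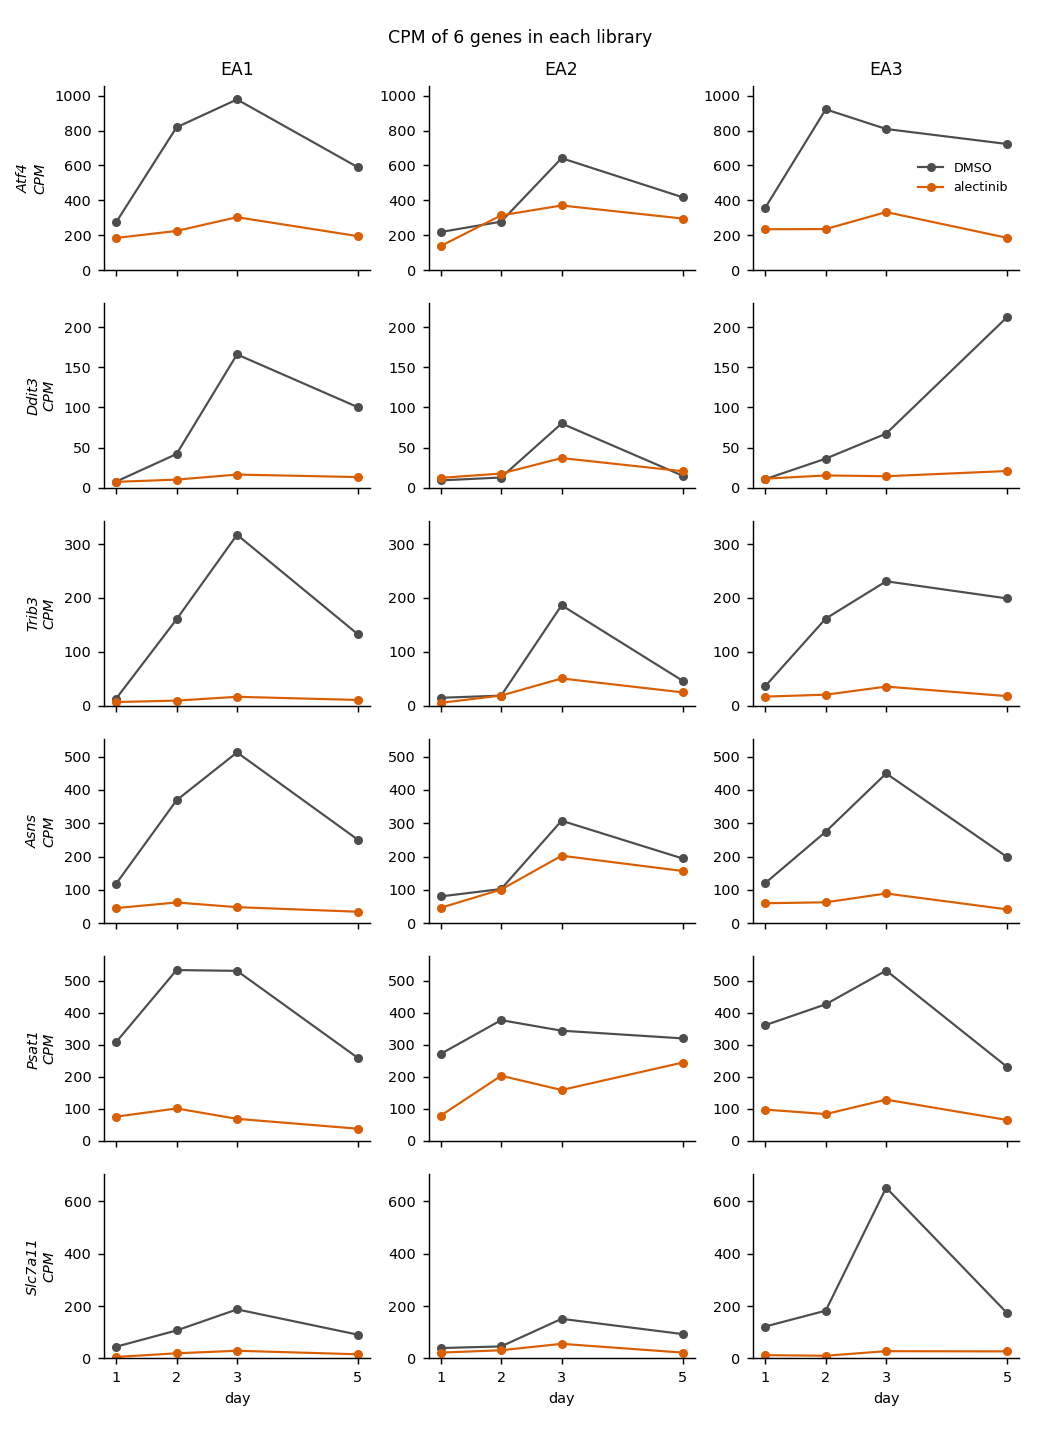
CPM (y axis, same scale across a row) by day of treatment (x axis) for Atf4, Ddit3, Trib3, Asns, Psat1 and Slc7a11 in EA1, EA2 and EA3; each point is 1 library, gray for DMSO and orange for alectinib. In EA1 and EA3 the Ddit3 points lie close together on day 1 and apart later, and Psat1 is apart from day 1 in every line (308 against 75.5 CPM in EA1).

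Of the 8 enzymes, EA1 had 8, EA2 5 and EA3 7 that were lower, with median log2 fold changes of -2.28, -0.88 and -1.63. The serine pathway enzymes Phgdh, Psat1 and Psph, the mitochondrial one-carbon enzymes Shmt2 and Mthfd2, and Asns were already lower on day 1 in each line. Psat1 encodes phosphoserine aminotransferase of the serine pathway. In EA1, Psat1 was at 308, 533, 531 and 259 CPM on days 1, 2, 3 and 5 with DMSO and at 75.5, 101, 68.8 and 37.9 CPM with alectinib. In EA2, Psat1 was at 272, 377, 344 and 320 CPM on days 1, 2, 3 and 5 with DMSO and at 78.6, 203, 159 and 244 CPM with alectinib. In EA3, Psat1 was at 361, 426, 532 and 231 CPM on days 1, 2, 3 and 5 with DMSO and at 97.6, 83.6, 129 and 65.1 CPM with alectinib. The treatments did not overlap in any line, and the EA2 alectinib level was higher on day 5 than on day 1. Psat1 fell 5.80-fold in EA1 (log2 fold change -2.54, SE 0.212, edgeR adjusted p = 4.99e-06), 2.06-fold in EA2 (log2 fold change -1.04, SE 0.204, edgeR adjusted p = 0.00224) and 4.08-fold in EA3 (log2 fold change -2.03, SE 0.207, edgeR adjusted p = 2.35e-05).

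Phgdh makes the first committed step from glycolysis to serine. In EA1, Phgdh was at 441, 729, 1145 and 619 CPM on days 1, 2, 3 and 5 with DMSO and at 166, 213, 126 and 89.1 CPM with alectinib. In EA2, Phgdh was at 563, 769, 806 and 567 CPM on days 1, 2, 3 and 5 with DMSO and at 301, 477, 386 and 495 CPM with alectinib. In EA3, Phgdh was at 557, 771, 892 and 496 CPM on days 1, 2, 3 and 5 with DMSO and at 242, 239.9, 249 and 148 CPM with alectinib. All alectinib libraries were below all DMSO libraries in each line. Phgdh fell 4.89-fold in EA1 (log2 fold change -2.29, SE 0.263, edgeR adjusted p = 4.46e-05) and 3.07-fold in EA3 (log2 fold change -1.62, SE 0.252, edgeR adjusted p = 4.16e-04). The difference of Phgdh in EA2 (log2 fold change -0.71, SE 0.247, edgeR adjusted p = 0.0505) was not past the threshold, but was in 6 of 12 alternatives (edgeR adjusted p = 0.00184 to 0.0484 in these).

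Psph removes the phosphate in the last step of serine synthesis. In EA1, Psph was at 31.6, 117, 151 and 50.4 CPM on days 1, 2, 3 and 5 with DMSO and at 12, 22.2, 17.2 and 11.4 CPM with alectinib. In EA2, Psph was at 36.3, 60.3, 107 and 77.1 CPM on days 1, 2, 3 and 5 with DMSO and at 15.8, 32.9, 36.2 and 45.2 CPM with alectinib. In EA3, Psph was at 34.9, 102, 105 and 48.8 CPM on days 1, 2, 3 and 5 with DMSO and at 18.7, 26.1, 30.8 and 18 CPM with alectinib. The treatments were apart in EA1 and EA3, and in EA2 the alectinib library of day 5 and the DMSO library of day 1 overlapped. Psph fell 4.85-fold in EA1 (log2 fold change -2.28, SE 0.253, edgeR adjusted p = 3.65e-05), 2.15-fold in EA2 (log2 fold change -1.10, SE 0.241, edgeR adjusted p = 0.00463) and 2.88-fold in EA3 (log2 fold change -1.53, SE 0.244, edgeR adjusted p = 4.97e-04). Of its exon bases, 10.4% overlap another gene on the other strand.

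Shmt2, the mitochondrial serine hydroxymethyltransferase, passes the carbon of serine to folate. In EA1, Shmt2 was at 214, 451, 453 and 184 CPM on days 1, 2, 3 and 5 with DMSO and at 67.3, 66.1, 58.1 and 43.5 CPM with alectinib. In EA2, Shmt2 was at 261, 278, 411 and 315 CPM on days 1, 2, 3 and 5 with DMSO and at 101, 164, 162 and 176 CPM with alectinib. In EA3, Shmt2 was at 272, 301, 277 and 159 CPM on days 1, 2, 3 and 5 with DMSO and at 91.5, 90.0, 89.5 and 52.5 CPM with alectinib. No alectinib library reached a DMSO library of its line. Shmt2 fell 5.18-fold in EA1 (log2 fold change -2.37, SE 0.198, edgeR adjusted p = 4.99e-06), 2.11-fold in EA2 (log2 fold change -1.08, SE 0.189, edgeR adjusted p = 0.00105) and 3.11-fold in EA3 (log2 fold change -1.64, SE 0.191, edgeR adjusted p = 5.95e-05).

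Mthfd2 carries that carbon on in mitochondria and is high in dividing cells. In EA1, Mthfd2 was at 82.1, 247, 290.1 and 128 CPM on days 1, 2, 3 and 5 with DMSO and at 41.8, 53.6, 36.2 and 24.1 CPM with alectinib. In EA2, Mthfd2 was at 96.9, 113, 228 and 156 CPM on days 1, 2, 3 and 5 with DMSO and at 19.7, 62.6, 89.4 and 74.7 CPM with alectinib. In EA3, Mthfd2 was at 114, 217, 247 and 114 CPM on days 1, 2, 3 and 5 with DMSO and at 46.8, 43.5, 62.0 and 27.5 CPM with alectinib. Again the treatments did not overlap, and the EA2 alectinib level was lowest on day 1. Mthfd2 fell 4.45-fold in EA1 (log2 fold change -2.15, SE 0.303, edgeR adjusted p = 2.10e-04), 2.61-fold in EA2 (log2 fold change -1.38, SE 0.293, edgeR adjusted p = 0.00385) and 3.77-fold in EA3 (log2 fold change -1.92, SE 0.296, edgeR adjusted p = 3.94e-04).

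Asns makes asparagine from aspartate and glutamine. In EA1, Asns was at 118, 369, 513 and 250.5 CPM on days 1, 2, 3 and 5 with DMSO and at 45.3, 62.2, 48.2 and 34.4 CPM with alectinib. In EA2, Asns was at 80.4, 103, 308 and 194 CPM on days 1, 2, 3 and 5 with DMSO and at 46.2, 101, 203 and 157 CPM with alectinib. In EA3, Asns was at 120.4, 275, 449.5 and 199 CPM on days 1, 2, 3 and 5 with DMSO and at 60.0, 62.7, 89.2 and 41.5 CPM with alectinib. DMSO libraries peaked on day 3 in all 3 lines, and alectinib libraries were below every DMSO library in EA1 and EA3 but rose to a peak on day 3 as well and overlapped with the DMSO libraries in EA2. Asns fell 5.92-fold in EA1 (log2 fold change -2.57, SE 0.299, edgeR adjusted p = 4.97e-05) and 3.83-fold in EA3 (log2 fold change -1.94, SE 0.289, edgeR adjusted p = 3.13e-04). The difference of Asns in EA2 (log2 fold change -0.43, SE 0.277, edgeR adjusted p = 0.286) was not past the threshold.

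Aldh18a1 is the first enzyme of proline synthesis. In EA1, Aldh18a1 was at 121, 285, 305 and 156 CPM on days 1, 2, 3 and 5 with DMSO and at 63.2, 72.9, 69.7 and 62.8 CPM with alectinib. In EA2, Aldh18a1 was at 153, 156, 339 and 261 CPM on days 1, 2, 3 and 5 with DMSO and at 84.5, 135, 242 and 148 CPM with alectinib. In EA3, Aldh18a1 was at 167, 230.5, 427 and 197 CPM on days 1, 2, 3 and 5 with DMSO and at 98.4, 105, 134 and 108 CPM with alectinib. The treatments were apart in EA1 and EA3 and overlapped in EA2. Aldh18a1 fell 3.01-fold in EA1 (log2 fold change -1.59, SE 0.208, edgeR adjusted p = 1.19e-04), 1.51-fold in EA2 (log2 fold change -0.59, SE 0.202, edgeR adjusted p = 0.0470) and 2.16-fold in EA3 (log2 fold change -1.11, SE 0.204, edgeR adjusted p = 0.00128). Pycr1, which finishes proline synthesis in mitochondria, was at 12.2 to 40.7 CPM with DMSO and 9.94 to 12.5 CPM with alectinib in EA1. Pycr1 fell 2.49-fold in EA1 (log2 fold change -1.32, SE 0.288, edgeR adjusted p = 0.00374). The differences of Pycr1 in EA2 (log2 fold change -0.33, SE 0.285, edgeR adjusted p = 0.433) and EA3 (log2 fold change -0.57, SE 0.284, edgeR adjusted p = 0.142) were not past the threshold. Calls that were lost when a single day was left out were those of Aldh18a1 in EA2 without day 1, 2, 3 or 5 (edgeR adjusted p = 0.0613 to 0.181).

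Of the transporters, 8 of 8 were lower in EA1 and in EA3 and 2 of 8 in EA2, with median log2 fold changes of -1.85, -1.45 and -0.03. Slc7a11 is the cystine importer xCT. In EA1, Slc7a11 was at 45.0, 107, 187 and 90.9 CPM on days 1, 2, 3 and 5 with DMSO and at 5.98, 19.8, 29.5 and 16.1 CPM with alectinib. In EA2, Slc7a11 was at 39.9, 46.1, 151 and 93.2 CPM on days 1, 2, 3 and 5 with DMSO and at 22.5, 31.5, 55.9 and 22.6 CPM with alectinib. In EA3, Slc7a11 was at 122, 183, 652 and 173 CPM on days 1, 2, 3 and 5 with DMSO and at 12.7, 10.5, 27.9 and 27.2 CPM with alectinib. EA3 DMSO cultures had the highest levels, with a peak on day 3, and the treatments did not overlap in EA1 or EA3. Slc7a11 fell 6.14-fold in EA1 (log2 fold change -2.62, SE 0.291, edgeR adjusted p = 3.71e-05), 2.33-fold in EA2 (log2 fold change -1.22, SE 0.282, edgeR adjusted p = 0.00651) and 12.5-fold in EA3 (log2 fold change -3.65, SE 0.306, edgeR adjusted p = 5.61e-06).

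Slc1a5 is the neutral amino acid and glutamine carrier ASCT2. In EA1, Slc1a5 was at 123, 228, 208 and 134 CPM on days 1, 2, 3 and 5 with DMSO and at 32.7, 29.5, 35.5 and 28.4 CPM with alectinib. In EA2, Slc1a5 was at 99.8, 78.3, 120.3 and 93.7 CPM on days 1, 2, 3 and 5 with DMSO and at 34.3, 24, 38.4 and 35.0 CPM with alectinib. In EA3, Slc1a5 was at 83.2, 142, 178 and 84.2 CPM on days 1, 2, 3 and 5 with DMSO and at 41.1, 31.1, 33.7 and 26 CPM with alectinib. The treatments did not overlap in any line, and the alectinib levels were between 24 and 41.1 CPM in all lines. Slc1a5 fell 5.31-fold in EA1 (log2 fold change -2.41, SE 0.216, edgeR adjusted p = 7.66e-06), 2.98-fold in EA2 (log2 fold change -1.58, SE 0.211, edgeR adjusted p = 1.37e-04) and 3.55-fold in EA3 (log2 fold change -1.83, SE 0.214, edgeR adjusted p = 6.02e-05).

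Slc7a5 is the large neutral amino acid transporter LAT1, which works as a pair with the heavy chain that Slc3a2 encodes. In EA1, Slc7a5 was at 344, 792, 761 and 585 CPM on days 1, 2, 3 and 5 with DMSO and at 169, 173, 151 and 113 CPM with alectinib. In EA2, Slc7a5 was at 153, 154, 270.2 and 148 CPM on days 1, 2, 3 and 5 with DMSO and at 156, 216, 522 and 287 CPM with alectinib. In EA3, Slc7a5 was at 216, 177, 356 and 264 CPM on days 1, 2, 3 and 5 with DMSO and at 98.4, 66.5, 98.0 and 40.0 CPM with alectinib. The order of the treatments was opposite between lines, and alectinib libraries were below all DMSO libraries in EA1 and EA3 and above the DMSO library of the same day on 4 of 4 days in EA2. Slc7a5 fell 3.97-fold in EA1 (log2 fold change -1.99, SE 0.275, edgeR adjusted p = 1.87e-04) and 3.42-fold in EA3 (log2 fold change -1.77, SE 0.274, edgeR adjusted p = 4.02e-04). The difference of Slc7a5 in EA2 (log2 fold change 0.61, SE 0.265, edgeR adjusted p = 0.116) was not past the threshold, but was in 3 of 12 alternatives (edgeR adjusted p = 0.0162 to 0.0293 in these).

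Slc3a2, the heavy chain CD98, serves LAT1 and xCT alike. In EA1, Slc3a2 was at 217, 553, 527 and 433 CPM on days 1, 2, 3 and 5 with DMSO and at 189, 191, 179.8 and 165 CPM with alectinib. In EA2, Slc3a2 was at 164, 186, 388 and 203 CPM on days 1, 2, 3 and 5 with DMSO and at 182, 286, 516 and 332 CPM with alectinib. In EA3, Slc3a2 was at 228, 431, 563 and 489 CPM on days 1, 2, 3 and 5 with DMSO and at 181, 161, 241 and 168 CPM with alectinib. In EA2 the alectinib level was above the DMSO level on all 4 days, and the treatments were apart in EA1 only. Slc3a2 fell 2.26-fold in EA1 (log2 fold change -1.18, SE 0.235, edgeR adjusted p = 0.00214) and 2.19-fold in EA3 (log2 fold change -1.13, SE 0.234, edgeR adjusted p = 0.00268). The difference of Slc3a2 in EA2 (log2 fold change 0.47, SE 0.229, edgeR adjusted p = 0.158) was not past the threshold, but was in 2 of 12 alternatives (without day 1 and with each line alone, edgeR adjusted p = 0.0182 and 0.0282).

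Slc7a1 imports arginine and lysine. In EA1, Slc7a1 was at 182, 299, 533 and 178 CPM on days 1, 2, 3 and 5 with DMSO and at 96.9, 82.3, 81.8 and 67.8 CPM with alectinib. In EA2, Slc7a1 was at 104, 97.6, 247 and 154 CPM on days 1, 2, 3 and 5 with DMSO and at 72.2, 107, 245 and 171 CPM with alectinib. In EA3, Slc7a1 was at 193, 155, 529.6 and 176 CPM on days 1, 2, 3 and 5 with DMSO and at 154, 141, 187 and 85.9 CPM with alectinib. The EA1 treatments were apart, and the EA2 and EA3 treatments overlapped. Slc7a1 fell 3.28-fold in EA1 (log2 fold change -1.71, SE 0.273, edgeR adjusted p = 4.91e-04) and 1.68-fold in EA3 (log2 fold change -0.75, SE 0.266, edgeR adjusted p = 0.0446). The difference of Slc7a1 in EA2 (log2 fold change -0.06, SE 0.262, edgeR adjusted p = 0.891) was not past the threshold.

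Slc38a2, the SNAT2 carrier of small neutral amino acids, is a long known amino acid response gene. In EA1, Slc38a2 was at 553, 598, 978 and 447 CPM on days 1, 2, 3 and 5 with DMSO and at 348, 281, 305 and 195 CPM with alectinib. In EA2, Slc38a2 was at 279, 257, 299 and 308 CPM on days 1, 2, 3 and 5 with DMSO and at 311, 278, 254 and 351 CPM with alectinib. In EA3, Slc38a2 was at 439, 411, 1189 and 464 CPM on days 1, 2, 3 and 5 with DMSO and at 384, 351, 583 and 212 CPM with alectinib. In EA2 all 8 libraries lay between 254 and 351 CPM. Slc38a2 fell 2.23-fold in EA1 (log2 fold change -1.16, SE 0.191, edgeR adjusted p = 6.17e-04) and 1.56-fold in EA3 (log2 fold change -0.64, SE 0.190, edgeR adjusted p = 0.0195). The difference of Slc38a2 in EA2 (log2 fold change 0.05, SE 0.188, edgeR adjusted p = 0.871) was not past the threshold.

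Slc6a9 is the glycine transporter GLYT1, and 30.2% of its exon bases overlap other genes on the opposite strand. In EA1, Slc6a9 was at 13.2, 56.0, 68.8 and 23.0 CPM on days 1, 2, 3 and 5 with DMSO and at 3.96, 4.04, 4.56 and 2.35 CPM with alectinib. In EA2, Slc6a9 was at 13.4, 8.92, 30.9 and 19.0 CPM on days 1, 2, 3 and 5 with DMSO and at 11.2, 12.9, 36.9 and 13.7 CPM with alectinib. In EA3, Slc6a9 was at 13.6, 25.5, 49.5 and 24.7 CPM on days 1, 2, 3 and 5 with DMSO and at 6.37, 6, 7.72 and 5.09 CPM with alectinib. All EA1 alectinib libraries were below all DMSO libraries, as in EA3, and the EA2 treatments overlapped. Slc6a9 fell 9.23-fold in EA1 (log2 fold change -3.21, SE 0.357, edgeR adjusted p = 3.72e-05) and 4.12-fold in EA3 (log2 fold change -2.04, SE 0.335, edgeR adjusted p = 6.02e-04). The difference of Slc6a9 in EA2 (log2 fold change 0.00, SE 0.32, edgeR adjusted p = 1.00) was not past the threshold. Slc1a4, the ASCT1 carrier of serine and alanine, was at 50.8 to 168 CPM with DMSO and 33.2 to 52.8 CPM with alectinib in EA3. Slc1a4 fell 1.92-fold in EA1 (log2 fold change -0.94, SE 0.278, edgeR adjusted p = 0.0192) and 2.02-fold in EA3 (log2 fold change -1.02, SE 0.284, edgeR adjusted p = 0.0149). The difference of Slc1a4 in EA2 (log2 fold change -0.06, SE 0.277, edgeR adjusted p = 0.914) was not past the threshold. Calls that were lost when a single day was left out were those of Slc7a1 in EA3 without day 2, 3 or 5 (edgeR adjusted p = 0.0515 to 0.191), Slc1a4 in EA1 without day 2 (edgeR adjusted p = 0.0771), Slc1a4 in EA3 without day 2, 3 or 5 (edgeR adjusted p = 0.0508 to 0.0893) and Slc38a2 in EA3 without day 3 or 5 (edgeR adjusted p = 0.0638 to 0.156).

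The 7 synthetases, which charge tRNAs with alanine (Aars), glycine (Gars), tryptophan (Wars), methionine (Mars), asparagine (Nars), serine (Sars) and both glutamate and proline (Eprs), are the last group. All 7 were lower in EA1, Mars in EA2, and Gars, Mars, Nars and Sars in EA3, with median log2 fold changes of -1.02, -0.36 and -0.70. In EA1, Mars was at 148, 220, 159 and 138 CPM on days 1, 2, 3 and 5 with DMSO and at 78.7, 94.4, 79.4 and 71.6 CPM with alectinib. In EA2, Mars was at 123, 157, 197 and 168 CPM on days 1, 2, 3 and 5 with DMSO and at 72.2, 131, 140 and 138 CPM with alectinib. In EA3, Mars was at 153, 159, 164 and 114 CPM on days 1, 2, 3 and 5 with DMSO and at 95.9, 100.0, 101 and 75.7 CPM with alectinib. The treatments of Mars were apart in EA1 and EA3, and in EA2 only the day 1 alectinib library lay below all DMSO libraries. Mars fell 2.03-fold in EA1 (log2 fold change -1.02, SE 0.116, edgeR adjusted p = 4.13e-05), 1.36-fold in EA2 (log2 fold change -0.45, SE 0.115, edgeR adjusted p = 0.0119) and 1.58-fold in EA3 (log2 fold change -0.66, SE 0.115, edgeR adjusted p = 9.03e-04).

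In EA1 the alectinib libraries of Aars, Gars, Wars, Nars and Eprs were all below the DMSO libraries. Nars fell 2.77-fold in EA1 (log2 fold change -1.47, SE 0.256, edgeR adjusted p = 8.94e-04) and 1.63-fold in EA3 (log2 fold change -0.70, SE 0.248, edgeR adjusted p = 0.0439). The difference of Nars in EA2 (log2 fold change -0.36, SE 0.247, edgeR adjusted p = 0.319) was not past the threshold. Of the synthetases, Nars had the largest fold change in EA1 and Sars in EA3. Sars fell 2.53-fold in EA1 (log2 fold change -1.34, SE 0.265, edgeR adjusted p = 0.00200) and 1.82-fold in EA3 (log2 fold change -0.87, SE 0.257, edgeR adjusted p = 0.0203). The difference of Sars in EA2 (log2 fold change -0.19, SE 0.254, edgeR adjusted p = 0.619) was not past the threshold. In EA1, Aars, Gars, Wars and Eprs fell 1.86- to 2.67-fold (edgeR adjusted p = 0.00301 to 0.00793). Gars also fell in EA3 (log2 fold change -0.70, SE 0.197, edgeR adjusted p = 0.0156). Aars, Wars and Eprs had log2 fold changes of -0.75 to -0.42 in EA3 (edgeR adjusted p = 0.0754 to 0.117), and the 4 genes -0.59 to 0.03 in EA2 (edgeR adjusted p = 0.147 to 0.946), none past the threshold. Calls that were lost when a single day was left out were those of Gars in EA3 without day 3 or 5 (edgeR adjusted p = 0.0621 to 0.0736), Mars in EA2 without day 1 or 3 (edgeR adjusted p = 0.0665 to 0.121), Nars in EA3 without day 2, 3 or 5 (edgeR adjusted p = 0.0509 to 0.150) and Sars in EA3 without day 2, 3 or 5 (edgeR adjusted p = 0.0505 to 0.125). Of the exon bases of Aars, 14.3% overlap another gene on the same strand.

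Between the lines, the size of the alectinib effect differed for 10 of 34 members, against 6.84% of all tested genes (edgeR test with 2 degrees of freedom), and the difference lay mainly with EA2. Set against EA1, the log2 fold change in EA2 was less negative, or above 0, for 9 members (Asns, Phgdh, Psat1, Shmt2, Slc38a2, Slc3a2, Slc6a9, Slc7a1 and Slc7a5), where 2.26% of all genes differed in that direction, and more negative for none (4.19% of all genes). Set against EA2, that in EA3 was more negative for Slc3a2, Slc6a9, Slc7a11 and Slc7a5, where 1.18% of all genes differed in that direction, and less negative for none (1.68%). No member differed between EA3 and EA1 (1.79% of all genes did), for which 9 of 34 members and 15.2% of all genes had an unadjusted p below 0.05.

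Slc7a5 and Slc6a9 gave the smallest p-values. For Slc7a5, the effect in EA2 was 2.60 log2 units above that in EA1 (SE 0.380, edgeR adjusted p = 0.00198). For Slc6a9, the difference was 3.21 (SE 0.473, edgeR adjusted p = 0.00208). Transporters supplied 6 of the 10 members and enzymes 4, whereas no transcription factor, effector or synthetase passed (Atf4 edgeR adjusted p = 0.126, Ddit3 edgeR adjusted p = 0.159 and Trib3 edgeR adjusted p = 0.128), which does not show that they respond alike. The count moved with single days, being 17 without day 1 (5.51% of all genes), 2 without day 2 (4.59%), 1 without day 3 (1.47%) and 3 without day 5 (2.23%), and was 4 without the replicate block (5.66%). Slc7a5 was the member that stayed past the threshold whichever day was left out (edgeR adjusted p at most 0.0487 over all alternatives).

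Day by day, the median ratio was least negative on day 1 in EA1 and EA3, with 1 library per treatment and day. The median log2 ratio of alectinib to DMSO over the 34 genes was -0.66, -1.74, -2.23 and -1.42 on days 1, 2, 3 and 5 in EA1 and -0.41, -1.32, -1.47 and -1.57 in EA3. In EA2 it was -0.66, 0.01, -0.66 and -0.29. In EA1, 30 of 34 members were lower with alectinib on day 1 (45.5% of all genes), 33 on day 2 (45.9%), 34 on day 3 (43.4%) and 34 on day 5 (47.5%). In EA2 the numbers were 26 (47.5%), 16 (48.2%), 28 (49%) and 25 (47.6%), and in EA3 28 (46.2%), 31 (49.8%), 34 (47.2%) and 34 (46.8%). By group, the transcription factors had a median log2 ratio of 0.01 in EA1 and -0.0028 in EA3 on day 1 and of -2.03 and -1.25 on day 3, whereas the enzymes stood at -1.39 and -1.10 on day 1 and at -2.98 and -1.81 on day 3. On day 1, 3 of 6 factors were lower in EA1 and in EA3, with Atf4 and Cebpg among them in both. In EA2 the day 1 medians were -0.30 for the factors and -1.05 for the enzymes. The map of daily ratios shows these medians of enzymes and factors, whose difference was not tested, and the few members higher with alectinib on day 1, among them Nupr1 in EA3 (27.8 CPM with DMSO and 138 CPM with alectinib) and Vldlr in all 3 lines.

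**Figure D3:**
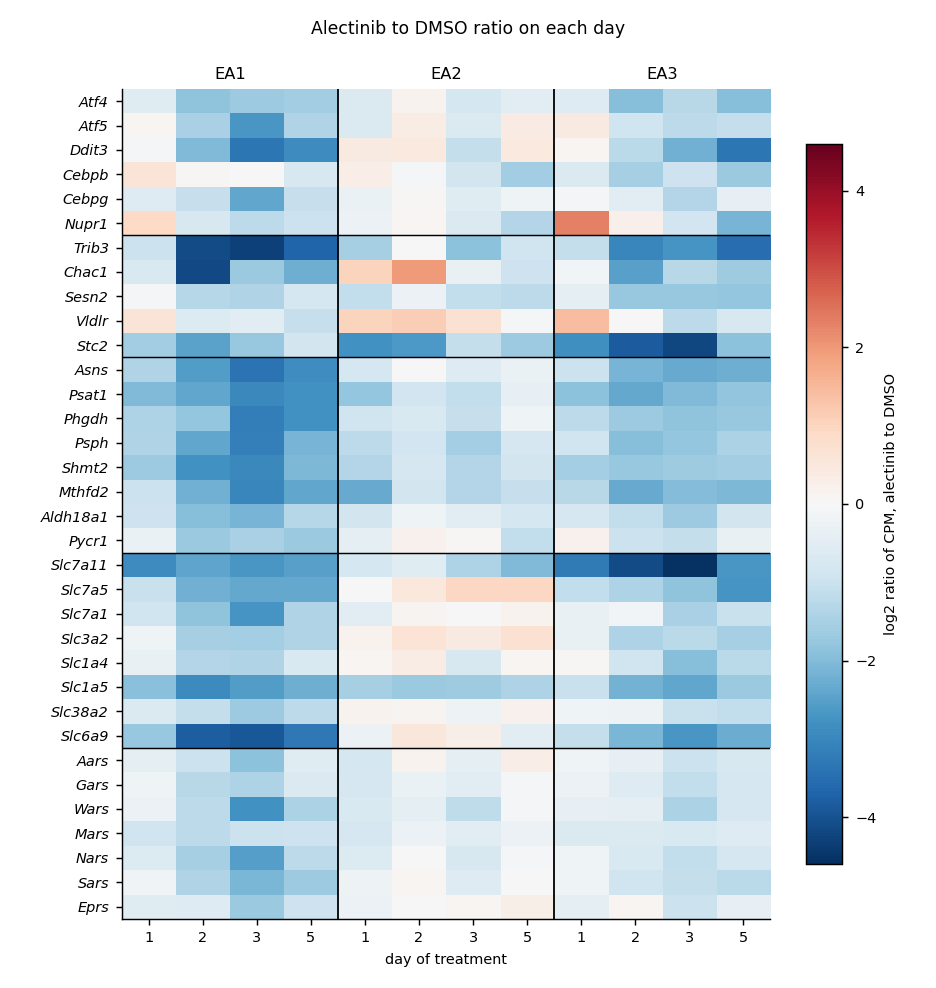
Log2 ratio of alectinib to DMSO CPM (color, blue for lower with alectinib, red for higher) for each of the 34 genes (rows, grouped by role) on days 1, 2, 3 and 5 (columns) in EA1, EA2 and EA3; 1 library per treatment and day. EA1 and EA3 are blue in 34 of 34 rows on days 3 and 5, whereas EA2 is blue in 16 of 34 rows on day 2; ratios run from -4.54 (Slc7a11, EA3, day 3) to 2.31 (Nupr1, EA3, day 1).

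A straight line over log2 days found little. The alectinib effect changed per doubling of days for 1 member, Nupr1 in EA3 (log2 change per doubling -1.93, SE 0.233, edgeR adjusted p = 0.0265, where 0.0491% of all genes passed in that line), and for none in EA1 (0.021%) or EA2 (0%). So few genes of any kind passed that these counts do not show a stable effect over days. At an unadjusted p below 0.05 were 12, 3 and 8 of 34 members in EA1, EA2 and EA3 (edgeR), beside 1529, 768 and 1707 of 14264 genes in DESeq2. Within treatments, Ddit3, Nupr1 and Vldlr rose with log2 days in EA3 DMSO cultures, where 11.3% of all genes moved in either direction, and no member passed in the other 5 line and treatment groups (3.64% of all genes in EA1 with DMSO, 0.491% in EA3 and 0.0631% in EA2 with alectinib, and 0% in the rest). Their slopes were 1.83 for Ddit3 (SE 0.458, edgeR adjusted p = 0.0195), 1.72 for Nupr1 (SE 0.434, edgeR adjusted p = 0.0196) and 1.57 for Vldlr (SE 0.390, edgeR adjusted p = 0.0186) per doubling of days. These counts moved with the days in the fit, as the counts over all genes did. In EA3 DMSO cultures 0 members passed without day 1 (0% of all genes, edgeR, with 5.74% at an unadjusted p below 0.05), 0 without day 2 (1.77%), 5 without day 3 (20.4%) and 1 without day 5 (0.105%). The slope of the alectinib effect in EA3 called no gene at all without day 1 or without day 5 (edgeR, with 4.39% and 5.79% of all genes at an unadjusted p below 0.05).

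With DMSO, day 3 held the highest of the 4 values for 22, 32 and 29 of the 34 genes in EA1, EA2 and EA3. In EA1 the highest value fell on day 2 for 9 members and on day 5 for 3, and in EA3 on day 2 for 2 and on day 5 for 3. After these values were seen, day was entered as a factor over the 3 lines, with the lines as replicates and each day set against day 1. The contrast of day 3 therefore describes values that led to its choice, and day 3 was not tested against day 5. On day 3, 28 of 34 members were higher with DMSO than on day 1 (6.38% of all genes were), with a median log2 fold change of 1.48, and on day 5 13 were (8.57%), while day 2 called no gene at all (edgeR, with 23 of 34 members and 11.1% of all genes at an unadjusted p below 0.05). The largest changes on day 3 were those of Trib3 (log2 fold change 3.66, SE 0.526, edgeR adjusted p = 0.00601), Chac1 (log2 fold change 3.44, SE 0.665, edgeR adjusted p = 0.0110) and Ddit3 (log2 fold change 3.44, SE 0.637, edgeR adjusted p = 0.00991). Eprs, Mars, Psat1, Shmt2, Slc1a5 and Slc38a2 were the 6 members that did not pass on day 3. With alectinib, Chac1 was the 1 member higher on day 3 (log2 fold change 2.20, SE 0.242, edgeR adjusted p = 0.0273, 0.0222% of all genes), and none was on day 2 (0%) or day 5 (0.0148%). Whichever line was left out, no gene at all passed on day 3 with alectinib, so that the call of Chac1 was lost. The alectinib effect itself was lower on day 5 than on day 1 for Cebpb, Nupr1 and Vldlr (2.04% of all genes) and for no member on day 2 (0%) or day 3 (0.00701%), so that a wider gap on day 3 over all 3 lines was not shown by test. The day 3 contrast called 1 of 14264 genes, so it could hardly call a member and does not show an unchanged gap. At an unadjusted p below 0.05 were 17 of 34 members on day 3 (edgeR), beside 1411 of 14264 genes in DESeq2. On day 3 the effect changed for 0 to 11 members when a line was left out, with 0, 274 and 1 genes past the threshold without EA1, EA2 and EA3. On day 5 the effect changed for 0 members without EA1 (0.0146% of all genes), 12 without EA2 (7.21%) and 0 without EA3 (0%, edgeR, with 12.7% at an unadjusted p below 0.05). Without EA1 no gene at all passed in DMSO on day 3 or day 5, and without EA3 1 gene on day 3, which was no member, and none on day 5. Without EA2 the counts were 28 (7.51% of all genes higher) and 13 (13.7%). The DMSO libraries serve both the changes over days and the alectinib effect, so that these sets of values are not independent.

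Without a test, the median level over day 1 reached 3.32-fold on day 3 in EA1 DMSO cultures, 2.36-fold in EA2 and 2.67-fold in EA3, and day 3 was the highest of the 4 days for 22, 32 and 29 of 34 members (23.6%, 30.3% and 23.6% of all genes). With alectinib the corresponding medians were 1.09-fold, 2.53-fold and 1.29-fold, and day 3 was the highest for 11, 25 and 19 members (19.6%, 28.8% and 21.5% of all genes). EA2 was the line whose median on day 3 was as high over day 1 with alectinib as with DMSO, as the plot of levels over day 1 shows.

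**Figure D4:**
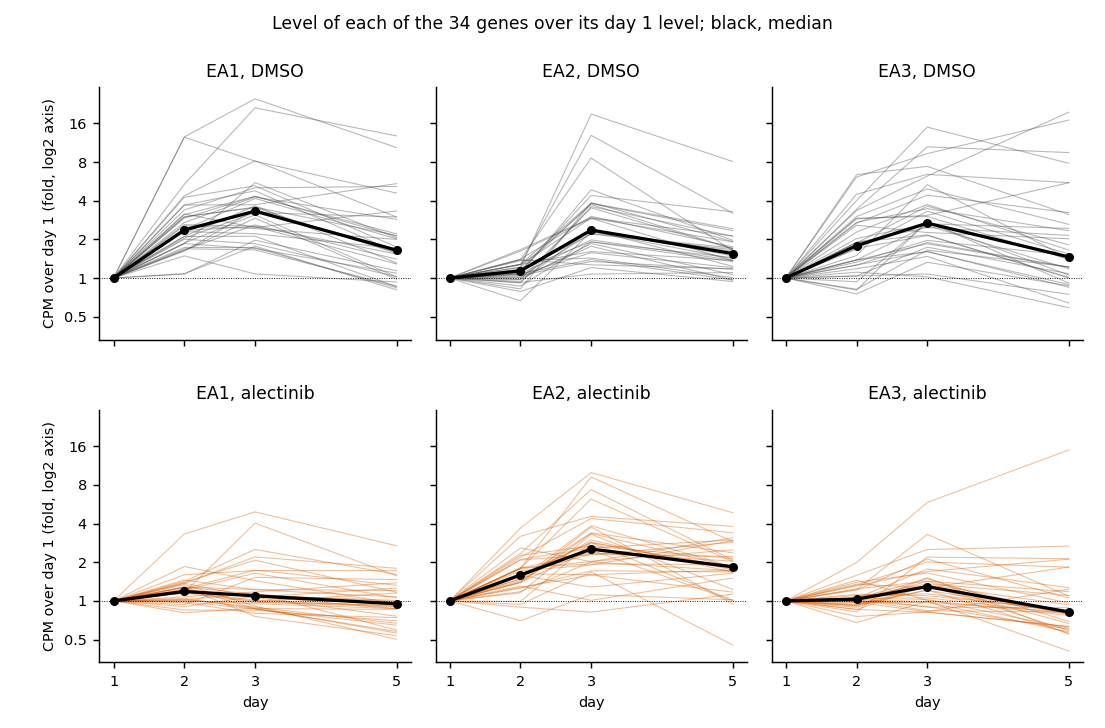
CPM of each of the 34 genes divided by its day 1 value (y axis, log2 scale) by day (x axis) in each line with DMSO (top, gray) and alectinib (bottom, orange); thin lines are genes and the black line is their median. The DMSO medians on day 3 are 3.32, 2.36 and 2.67 in EA1, EA2 and EA3, and the alectinib medians 1.09, 2.53 and 1.29.

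Without drug, the members that differed from EA2 were higher in EA1 and EA3. In the 12 DMSO libraries, 18 of 34 members differed between the lines, against 55.6% of all 12886 tested genes, a share near that background. The direction was uneven, with 20 members lower in EA2 than in EA1 (20.3% of all genes) and none higher (20.5%), and 11 members higher in EA3 than in EA2 (19.3%) and none lower (17.1%). EA3 and EA1 differed for 5 members, of which Slc7a11 was higher in EA3 (17.5% of all genes) and Atf5, Nars, Slc7a5 and Stc2 were lower (15.2%).

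Atf5, Slc7a5 and Stc2 had the smallest p-values (edgeR adjusted p = 5.15e-05, 6.87e-05 and 1.08e-04), and each DMSO library is drawn in the plot of these 3 genes. Atf5 had a mean of 305 ± 224, 40.5 ± 14.7 and 66.0 ± 28.7 CPM in EA1, EA2 and EA3 (SD, n = 4 days), and EA2 was below EA1 (log2 difference -2.65, SE 0.338, edgeR adjusted p = 6.71e-05). Slc7a5 had a mean of 621 ± 206, 181 ± 59.2 and 253 ± 77.5 CPM in EA1, EA2 and EA3 (SD, n = 4 days), and EA2 was below EA1 (log2 difference -1.81, SE 0.227, edgeR adjusted p = 5.64e-05). Stc2 had a mean of 151 ± 50.1, 12.8 ± 6.19 and 86.0 ± 74.6 CPM in EA1, EA2 and EA3 (SD, n = 4 days), and EA2 was below EA1 (log2 difference -3.74, SE 0.460, edgeR adjusted p = 5.01e-05). For Stc2, every EA1 library was above every EA2 library, and EA3 ran from 12.4 CPM on day 1 to 185 CPM on day 3 and so overlapped with both. For Slc7a5, the EA2 and EA3 ranges overlapped and every EA2 library was below every EA1 library. For Atf5, the EA1 library of day 1 lay within the EA3 range. The number of members differing was 8 without day 2 (38.5% of all genes), 7 without the day as a replicate block (39.7%) and 12 under library size alone (57.4%), where Sesn2, Asns, Slc1a5, Aars, Gars and Nars did not pass.

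**Figure D5:**
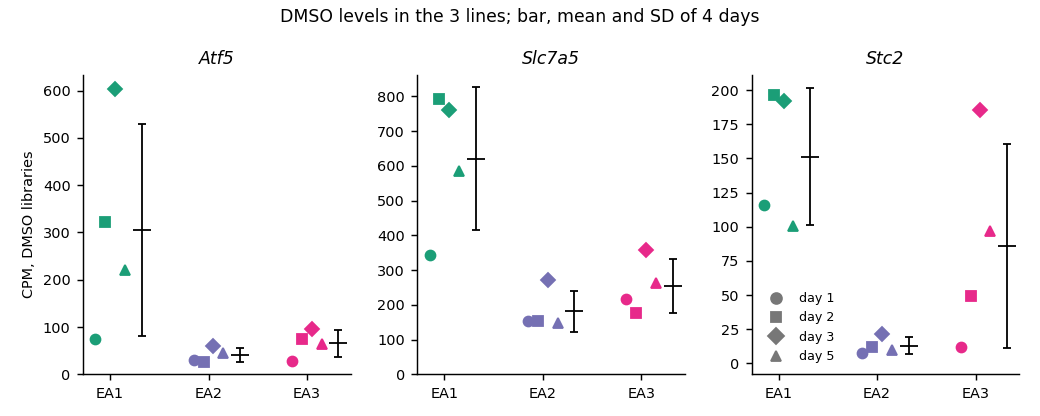
CPM of Atf5, Slc7a5 and Stc2 in the DMSO libraries of EA1, EA2 and EA3; each symbol is 1 library, with its shape for the day, and the bar to its right gives the mean and SD of the 4 days. EA2 has the lowest mean in each panel (40.5, 181 and 12.8 CPM).

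Genes around the response were counted in 5 further lists, written from general knowledge but with earlier results of these data known. Their counts are therefore no independent support. Further ATF4-responsive genes that are no members were lower in part, since of 19 tested of 23, EA1 had 13 lower, EA2 7 and EA3 14, and none was higher. Cth, which makes cysteine, had the log2 fold changes -5.28 (EA1), -3.21 (EA2) and -3.49 (EA3). Gdf15, a stress-induced secreted factor, had -3.01, -2.46 and -3.48 in EA1, EA2 and EA3, and Mthfd1l, a mitochondrial folate enzyme, -1.66, -0.82 and -1.96 in EA1, EA2 and EA3. These 3 were lower in all 3 lines. Slc38a1, a relative of Slc38a2, was near 0 CPM in EA1 and lower with alectinib in EA2 (log2 fold change -2.06, SE 0.266, edgeR adjusted p = 2.15e-04). The genes that act on eIF2α, upstream of Atf4, went both ways, and of 9, 3 were lower and 2 higher in EA1, 1 lower in EA2, and 2 lower and 2 higher in EA3. Eif2s1, the α subunit itself, was lower in all 3 lines (-0.58, -0.50 and -0.59 in EA1, EA2 and EA3), Eif2ak3, which encodes PERK, was higher in EA3 (log2 fold change 1.26), Eif2ak2, which encodes PKR, was higher in EA1 and EA3 (0.79 and 0.86), and Ppp1r15b, a subunit of the eIF2α phosphatase, was lower in EA1 (-0.73).

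Of 12 genes of one-carbon and amino acid metabolism outside the ATF4 response, 3 were lower and 2 higher in EA1, 4 lower and 1 higher in EA2, and 4 lower and 1 higher in EA3. Glul, glutamine synthetase, was higher in all 3 lines (1.2, 1.05 and 1.34 in EA1, EA2 and EA3). Shmt1, the cytosolic partner of Shmt2, was lower in all 3 (-1.29, -1.74 and -1.09 in EA1, EA2 and EA3), as was the aspartate aminotransferase gene Got1 (-1.04, -0.93 and -0.93 in EA1, EA2 and EA3). Bcat1, a branched-chain aminotransferase, was lower in EA1 and EA3 (-1.73 and -3.44). Of 8 synthetases known to respond less to ATF4, EA1 had 5 lower, EA2 2 and EA3 3, with none higher, and the valine and phenylalanine enzymes Vars and Farsb were lower in all 3 lines. Their median log2 fold changes were -0.46, -0.11 and -0.32, against -1.02, -0.36 and -0.70 for the 7 member synthetases. In the IRE1 and ATF6 branch of the unfolded protein response, 4 of 10 genes were lower in EA1, 3 lower and 2 higher in EA2, and 4 lower in EA3. Ern1, which encodes IRE1α, was lower in all 3 lines (-2.34, -1.23 and -1.30 in EA1, EA2 and EA3), Atf6 in EA1 (-1.68), the chaperone gene Hyou1 in EA3 (-0.73) and Sdf2l1, an endoplasmic reticulum protein, in EA2 (-1.48). Across these lists the backgrounds were 14.6%, 11.3% and 15.1% of all genes lower and 19%, 13% and 17.5% higher.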

How the data were processed

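RNA of EA1, EA2 and EA3 cells was sequenced as poly(A)-selected, strand-marking libraries with paired reads. The deposited values are raw counts per gene, which the authors took from the counting option of STAR, run on the mm10 genome, with 1 column per library. Before alignment, bbduk had removed adapters and FastQC had been used on the reads. The annotation release, the tool versions and the strand setting of the counter are not given in the sources used here, so that genes overlapping on opposite strands are named as such. Of 55415 rows, 24 held dates in place of gene symbols (0.129 to 0.201% of the counts of a library) and were left out, which left 55391 genes. Samples were grouped by title into line, treatment and day. One general protocol text among the labels lists other days than the titles do, and the titles were used. The 2 libraries titled EA3 day 7 entered 1 alternative.

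Counts were scaled by TMM and tested with the robust quasi-likelihood test of edgeR 4.0.16 (R 4.3.3, limma 3.58.1) on genes kept by filterByExpr, with 12 blocks of line and day, 1 alectinib term per line and Benjamini-Hochberg adjustment over all tested genes at 0.05. Differences between lines had 2 degrees of freedom. Change over days was a slope on log2 day, and the fits with day as a factor were added after the data were examined. DMSO levels between lines were fitted on 12 libraries with day as a factor. The pairing of treatments comes from the day in the titles, and the deviations of same-day libraries of a line correlated at -0.3 to 0.549. Standard errors and fold changes are on the log2 scale of edgeR. Library totals of 5780062 to 11732401 counts put a floor of 3 counts at 0.251 to 0.53 CPM on the TMM scale, covering counting error only.

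Alternatives were DESeq2 size factors, library size alone, no filter, at least 10 counts in every library, DESeq2 1.42.0, each day left out, no replicate block, each line alone and all 26 libraries. The fitting code was tested on simulated data. The members, the other lists and the rule for named genes were chosen with earlier results of these data known. By that rule, values in every library are given for Atf4, Ddit3, Trib3, Chac1 and Asns, for members lower in all 3 lines, for those whose effect differed between lines and for the 3 with the smallest p-values between lines in DMSO, and in the other lists genes past the threshold in all 3 lines and the 2 with the smallest p-values in a line are named. Promoter letters were read from RefSeq sequences of GRCm38.p6 (30 of 34 members matched), of which 1 window is not reported here, and exon overlaps from the GENCODE annotation of the same build.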

Additional observations from a re-analysis of the deposited data

Results flagged for a closer look

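Single days stood apart from the other 3 of their line and treatment in 16 of the 204 groups of 4 libraries that the 34 genes give, by the gap to the nearest day over the range of the group. That is 7.84% of the groups, beside 7.31% of the groups that all tested genes give under the same rule, and chance gives about 1 in 20. The highest of 4 DMSO libraries was that of day 3 for Ddit3 (80.1 CPM), Cebpg (86.3 CPM) and Slc7a5 (270 CPM) in EA2, for Slc7a11 (652 CPM), Slc7a1 (530 CPM), Slc38a2 (1190 CPM) and Wars (236 CPM) in EA3, and for Eprs (712 CPM) in EA1. With alectinib, day 3 was the highest for Nupr1 (174 CPM), Vldlr (265 CPM) and Slc6a9 (36.9 CPM) in EA2 and for Chac1 (31.1 CPM) in EA3. The lowest alectinib library stood apart on day 5 in EA3 for Phgdh (148 CPM), Shmt2 (52.5 CPM) and Nars (215 CPM) and on day 1 in EA2 for Mars (72.2 CPM). Thus 12 of the 16 were high values of day 3, and each is a single library. High values of day 3 made up 1.31% of the groups of all tested genes.

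The response to alectinib differed between the lines for 10 members by the edgeR test with 2 degrees of freedom, with adjusted p = 0.0147 for Asns, 0.0173 for Psat1, 0.0389 for Phgdh, 0.0265 for Shmt2, 0.00814 for Slc7a11, 0.00217 for Slc7a5, 0.0417 for Slc7a1, 0.0113 for Slc3a2, 0.0359 for Slc38a2 and 0.00410 for Slc6a9. All 10 had their smallest fall, or a value above 0, in EA2.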

How the results depend on the processing

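Counts of members are of 34, with the value as reported and the share of all tested genes that passed under the alternative in parentheses. Under 2 other scalings, the number of members lower with alectinib stayed within 1.5 times in each line, and no result changed sign while past the threshold. Without the replicate block of line and day, 4 members were lower in EA2 (10, 8.9%), 4 differed between lines in the alectinib effect (10, 5.66%) and 7 in DMSO level (18, 39.7%), and no other count moved by over 1.5 times. With no filter on low counts, 2 were higher in EA2 (0, 5.3%), 25 differed between lines (10, 8.08%), 2 changed in effect per doubling of days in EA3 (1, 0.234%), 8 moved with log2 days in EA1 DMSO (0, 3.31%), 8 in EA2 DMSO (0, 0.159%), 9 in EA2 alectinib (0, 0.59%), 8 in EA3 DMSO (3, 5.94%) and 2 in EA3 alectinib (0, 2.03%), 16 were higher on day 2 than on day 1 with DMSO (0, 0.664%) and 2 on day 3 with alectinib (1, 0.0641%). Each line fitted alone also gave 2 higher in EA2 (0, 16.9%). With at least 10 counts in every library, 5 moved with log2 days in EA3 DMSO (3, 15.4%). DESeq2 gave 16 differing between lines (10, 13.7%), 4 changing in effect per doubling of days in EA1 (0, 1.72%), 1 in EA2 (0, 0.421%) and 4 in EA3 (1, 2.45%), 7 moving with log2 days in EA1 DMSO (0, 9%), 5 in EA3 DMSO (3, 17.3%) and 1 in EA3 alectinib (0, 2.11%), 5 higher on day 2 with DMSO (0, 0.21%), 8 on day 3 with alectinib (1, 1.13%) and 1 on day 5 (0, 1.45%), and 6 changing in effect on day 3 (0, 1.46%). The cause was not tested.

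Leaving out each day in turn gave 27 to 31 members lower in EA1, 7 to 9 in EA2 and 18 to 28 in EA3, 0 to 2 higher in EA2, 1 to 17 differing between lines, 0 to 2 changing in effect per doubling of days in EA3, 0 to 4 moving with log2 days in EA1 DMSO, 0 to 5 in EA3 DMSO and 0 to 2 in EA3 alectinib, and 8 to 19 differing in DMSO level. In the same order, the counts over 14270 to 14490 tested genes were 1360 to 1907, 985 to 1306, 1389 to 1836, 1157 to 1349, 211 to 792, 0 to 78, 0 to 1585, 0 to 2929 and 0 to 567. For DMSO level the count was 5040 to 6880 of 12930 to 13096 genes. Leaving out each line gave 0 to 3 members higher with DMSO on day 2, 0 to 28 on day 3 and 0 to 13 on day 5, 0 to 0 with alectinib on day 3 (1 with all lines), and 0 to 1, 0 to 11 and 0 to 12 changing in effect on days 2, 3 and 5. In the same order, the counts over all tested genes were 0 to 20, 0 to 914, 0 to 1666, 0 to 0, 0 to 9, 0 to 274 and 0 to 982. A fit without 1 line has 2 lines as replicates. With 1 library per line, treatment and day, no value of a single day has an error, and low members such as Stc2 in EA2 (1.09 CPM on day 1 with alectinib) rest on few counts.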

Other observations

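Both libraries titled EA3 day 7, which resemble EA2, gave lower values with alectinib for 34 of 34 members, against 47.9% of all tested genes, with a median log2 ratio of -1.57, and with 1 library per treatment there is no test. Slc7a11 went from 298 CPM with DMSO to 8.63 CPM with alectinib (log2 ratio -5.11) and Atf5 from 50.7 to 34.2 CPM (log2 ratio -0.57), the ends of the range. Atf4 was at 639 and 298 CPM, Asns at 339 and 73.5 CPM, Trib3 at 163 and 16.3 CPM, and Ddit3 at 128 and 19.8 CPM. In the pairs titled EA2, 16 to 28 of the 34 members were lower on a given day, against 47.5 to 49% of all tested genes.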
